A study of Rattus norvegicus with 10 samples.

Results

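The microRNAs (miRNAs) described here are both arms of miR-143 and miR-145, a pair of hairpins known as the smooth muscle cluster. They were chosen by name: of 761 rat miRNA probes on the array, those named rno-miR-143-3p, rno-miR-143-5p, rno-miR-145-5p and rno-miR-145-3p were taken, 4 in all, each with 1 spot per array. The tissue was left ventricle, and the donors were Wistar males of 250 g to 350 g. In the DEX group dexmedetomidine (DEX), an agonist of alpha2 adrenergic receptors used for sedation, was infused over 30 min and followed by a short saline washout, and in the Control group saline was infused throughout. Each group had 5 arrays, 1 per rat, so 10 in all, and none of these rats underwent ischemia or carried a named genetic change. Their age was not given in the sources used here. The comparison asks whether the vessel wall miRNAs of the heart differed in abundance after a short DEX infusion.

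The 2 hairpins are transcribed together as one long RNA in smooth muscle cells, where serum response factor and its partner myocardin drive their expression. Each hairpin is cut into a 5p and a 3p arm, and a miRNA represses mRNAs that pair with its seed, bases 2 to 8. miR-143 and miR-145 are known for holding vascular smooth muscle in its contractile state, in part by repressing the transcription factors Klf4, Klf5 and Elk1. In a piece of ventricle they come mainly from the walls of coronary vessels and from pericytes, so they serve as a marker of vessel wall content. In such a bulk sample fewer cells of a type and less RNA per cell cannot be told apart.

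In RefSeq (build GRCr8) both hairpins lie on the minus strand of chromosome 18, Mir143 at chr18:57371349-57371453 and Mir145 at chr18:57369983-57370070, with 1278 bases between them. Both lie inside the long noncoding RNA gene Carmn, also named Mir143hg, at chr18:57368191-57389112 on the same strand. Whether they fall in its exons or introns was not analysed here. The hairpins are shown with the mature arms in capitals, since the readout below separates the arms of each hairpin:
Mir143 hairpin: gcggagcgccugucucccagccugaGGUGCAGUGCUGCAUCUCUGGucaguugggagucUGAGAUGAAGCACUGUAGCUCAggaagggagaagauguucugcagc
Mir145 hairpin: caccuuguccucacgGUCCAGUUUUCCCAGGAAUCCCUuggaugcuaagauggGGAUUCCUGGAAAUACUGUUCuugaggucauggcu
The mature sequences follow, 5′ to 3′, with the seed in capitals:
rno-miR-143-3p: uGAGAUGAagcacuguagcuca
rno-miR-143-5p: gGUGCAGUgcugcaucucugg
rno-miR-145-5p: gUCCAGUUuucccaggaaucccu
rno-miR-145-3p: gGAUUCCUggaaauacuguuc
All 4 members were matched in RefSeq by name. The 4 seeds differ from each other, and 0 of the other mature rat miRNAs, out of 693 names in the table, share any of them. The longest run of bases in common with another rat miRNA was 8 for miR-143-3p, 10 for miR-143-5p (with rno-miR-3584-3p), 8 for miR-145-5p and 7 for miR-145-3p. Bases G and C make up 61.9% of miR-143-5p, against 45.5% of its partner arm, 52.2% of miR-145-5p and 42.9% of miR-145-3p.

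Normalized signal is the spot intensity above the blank spots, scaled so that the median of the miRNAs detected on an array is 25. The number of detected miRNAs lay between 483 and 533 per array. By the array identifiers, slide 1 held the first 4 Control arrays and slide 3 held DEX 4 and DEX 5, while slide 2 carried Control 5 beside the other 3 DEX arrays, so slide and group were largely entangled. Before scaling DEX 1 was the dimmest array, with a median signal over blank of 17.3 against 35.4 to 53.5 on the other arrays, and its spike control spots were the dimmest too (5644 against 10447 to 16168). On slide 3 the spots without a probe stood 37.7 and 28.8 above blank, against -0.797 to 10.2 on slides 1 and 2. With 5 arrays a group, their number sets the precision of each value.

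All 4 members were detected (above the blank mean by 2 SD) on 10 of 10 arrays, and none of them passed the test for a change after DEX. Their log2 differences between the groups were 0.15, 0.12, 0.06 and 0.23 in favour of DEX. On the scaling described above, all were smaller than the spread between replicates (within-group SD). In limma across 503 tested miRNAs, 0 of 4 members had an adjusted p under 0.05, where 0% of all tested miRNAs did, and 0 of 4 had an unadjusted p under 0.05, where 2.98% did (15 of 503) and 1.39% did with a higher value in DEX. By the methods' t-test with a 1.5-fold threshold, 0 of 4 were called, against 1.59% of all tested miRNAs. All 4 differences were above 0, as were 59.2% of all tested miRNAs, whose median log2 difference was 0.044. With scaling to the 75th percentile or quantile normalization 3 of 4 were above 0. Without scaling 1 of 4 was, and on slide 2 alone 0 of 4. The median over all tested miRNAs was -0.064 at the 75th percentile, 0.006 with quantile normalization, -0.16 without scaling and -0.19 on slide 2 alone. Measured from that median, the members stood at 0.10, 0.080, 0.016 and 0.19 in the fit as reported. These values were the same at the 75th percentile and without scaling.

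miR-143-3p, the miR-143 arm that represses Elk1, was detected far above the floor, at 343 to 551 times the lowest detected value of its array. Its normalized signal in the Control group was 1996, 1920.1, 1435, 1635 and 2352 (replicates 1 to 5), and in the DEX group 2373, 1924, 1651, 1894 and 2479. The groups overlapped over most of their range, with Control 3 lowest and DEX 5 highest. The mean was 1868 ± 352 in the Control group and 2064 ± 349 in the DEX group (SD, n = 5 each), means 0.15 ± 0.17 apart on the log2 scale (SE, limma adjusted p = 0.905; two-sided exact permutation test, p = 0.373). The 95% interval of the fold between groups ran from 0.857 to 1.43.

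miR-145-5p is the arm known to repress Klf5 and Klf4. Control replicates 1 to 5 had a normalized signal of 1319, 1147, 998, 1004 and 1359.8, and the DEX replicates had 1484, 1163, 1003, 1199.7 and 1223. DEX 1 was highest, and DEX 3 lay beside the 2 lowest Control arrays. The means were 1165 ± 170.1 and 1214 ± 173 (SD, n = 5 each), which differ by 0.06 ± 0.15 on the log2 scale (SE, limma adjusted p = 0.930; exact permutation test, p = 0.635), and the interval of the fold ran from 0.830 to 1.31. Without DEX 1 the log2 difference was -0.01, with scaling to the 75th percentile -0.05 and with quantile normalization -0.04.

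miR-143-5p, the partner arm of miR-143-3p, had a normalized signal of 148, 127, 123, 177 and 195 in Control replicates 1 to 5 and of 142, 166, 244, 155 and 138 in the DEX replicates. Here DEX 3, which was the lowest DEX array for both miR-143-3p and miR-145-5p, was the highest array of all. The means were 154 ± 31.2 and 169 ± 43.2 (SD, n = 5 each), with 0.12 ± 0.19 between them on the log2 scale (SE, limma adjusted p = 0.914; exact permutation test, p = 0.563) and an interval of the fold from 0.817 to 1.45. Without DEX 3 the log2 difference was -0.02.

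miR-145-3p, the partner arm of miR-145-5p, was dim. Its normalized signal was 19.1, 14.3, 9.44, 8.58 and 25.6 in Control replicates 1 to 5, against 20.2, 15.7, 16.5, 16.4 and 14.6 in the DEX replicates. The Control arrays spread from 2.26 to 5.99 times the lowest detected value of their array, and all DEX arrays lay inside the Control range. The means were 15.4 ± 7.08 and 16.7 ± 2.11 (SD, n = 5 each), or 0.23 ± 0.27 on the log2 scale (SE, limma adjusted p = 0.905; exact permutation test, p = 0.452), and the interval of the fold was the widest of the 4, from 0.784 to 1.76. The log2 difference was 0.05 without Control 4, 0.09 without Control 3 and 0.45 without Control 5. On DEX 4 and DEX 5 this probe stood 35.2 and 25.2 above blank, which is below the median of the probe-free spots there (37.7 and 28.8), so its values on slide 3 are not above that background.

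**Figure D1:**
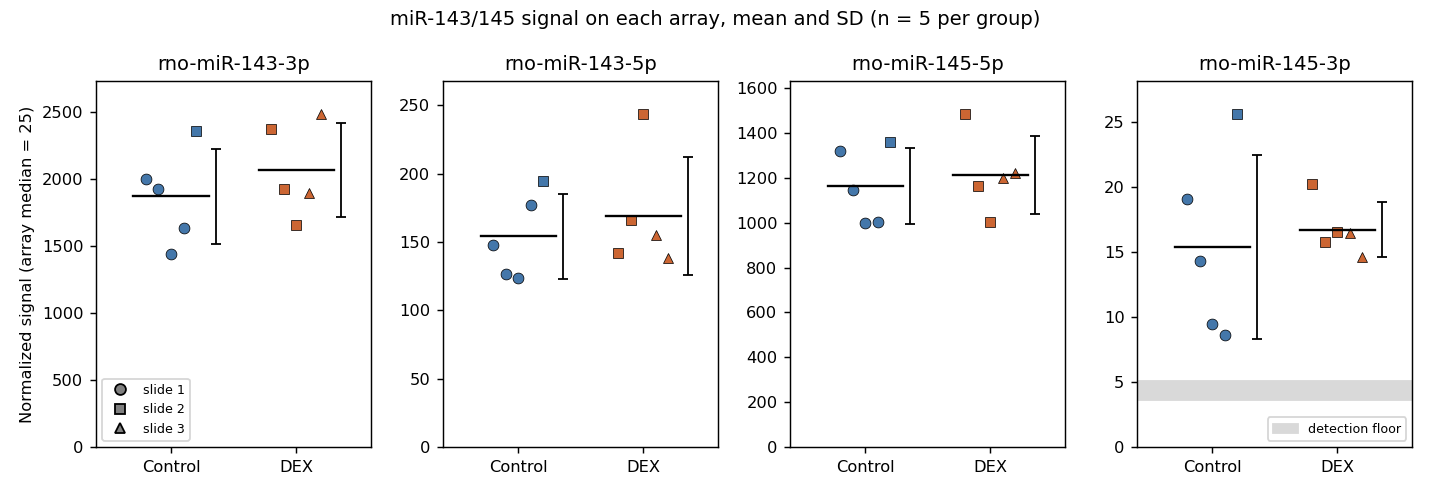
Normalized signal of each member (linear axis from 0) on the 5 Control and 5 DEX arrays; points are arrays with their slide as the symbol, lines are group means and bars are SD. The groups overlap in all 4 panels, and in the miR-145-3p panel the lowest Control arrays approach the grey band of the detection floors.

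The smallest p this exact test can give with 5 arrays per group is 0.00794. Groups without overlap were seen for 0 of 4 members, and for 0.599% of the 501 tested miRNAs with a value on every array. Of the 25 pairings of a DEX with a Control array, DEX was higher in 17 for miR-143-3p, 15 for miR-143-5p, 15 for miR-145-5p and 16 for miR-145-3p.

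The direction was not the same within slide 2, whose single Control array leaves slide and that rat impossible to tell apart. On slide 2, which holds 3 DEX arrays and only Control 5, all 4 members were lower in DEX, with log2 differences of -0.26 for miR-143-3p, -0.12 for miR-143-5p, -0.18 for miR-145-5p and -0.56 for miR-145-3p. The median over all tested miRNAs was also lower there, at -0.19. Control 5 stood above the mean of the slide 1 Control arrays for every member, for example at 25.6 against 12.8 ± 4.85 (SD, n = 4) for miR-145-3p and at 2352 against 1747 ± 259 for miR-143-3p. With slide as a fixed term in limma, which rests on the same arrays, the differences were the same and the smallest adjusted p among the members was 0.897. When slide as a fixed term was fitted on the scaling over the miRNAs detected on all arrays, chosen after seeing the data, they were -0.07 for miR-143-3p, 0.07 for miR-143-5p, 0.01 for miR-145-5p and -0.37 for miR-145-3p, where the median over all tested miRNAs was 7.4e-05. With slide as a random block and the first scaling they were 0.17, 0.15, 0.08 and 0.30. The correlation within a slide that this block estimated was slightly negative (-0.061), so the fit does not stand for a removal of slide differences.

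**Figure D2:**
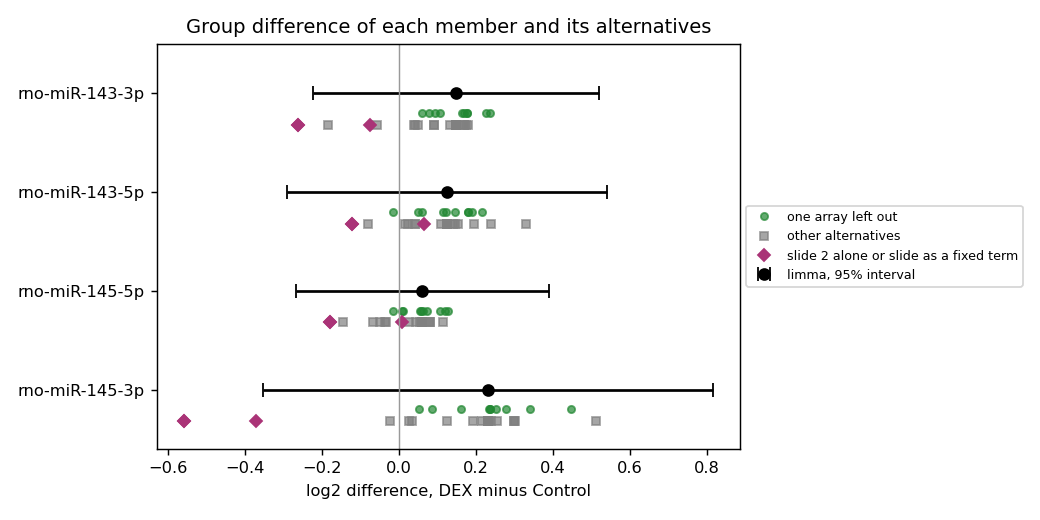
Log2 difference of each member, DEX minus Control; black points with bars are limma estimates with 95% intervals, green points leave out 1 array each, grey squares are the other alternatives and purple diamonds are slide 2 alone or slide as a fixed term. Every interval spans 0, and the lowest diamond lies to the left of 0 for each member.

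The spread of miR-143-3p and miR-145-5p depended on the scaling. When each array was scaled over the 405 miRNAs detected on all arrays, the rule that the authors' own values follow, the offset from the scaling above ranged over 0.34 on the log2 scale. This offset moved with the number of miRNAs detected on the array (r = 0.91, rho = 0.85 over 10 arrays, r = 0.87 without the 2 arrays farthest from the median). Such a relation is partly built in, since the offset depends on which miRNAs the array detected. On that scaling the within-group SD of miR-143-3p on the log2 scale was 0.14 in place of 0.26 and that of miR-145-5p was 0.13 in place of 0.21, while that of miR-143-5p was 0.38 in place of 0.31. miR-143-3p then had 1204 ± 137 in the Control group and 1350.3 ± 103 in the DEX group (SD, n = 5 each), or 0.17 ± 0.11 on the log2 scale (SE, limma adjusted p = 0.632; exact permutation test, p = 0.0794), with DEX higher in 21 of 25 pairings. The other members had log2 differences of 0.15, 0.08 and 0.25 on it, for miR-143-5p, miR-145-5p and miR-145-3p, with adjusted p from 0.702 to 0.817. On that scaling the difference of miR-143-3p (0.17) was above its within-group SD (0.14), while those of the other members were below theirs.

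Differences between 2 members on the same array do not depend on a common scaling factor, so they show whether the arms shifted apart. A log2 difference between probes is not a ratio of molecules, since probes differ in affinity, and only its change between groups is read here. miR-143-3p minus miR-143-5p was 3.60 ± 0.27 in the Control group and 3.63 ± 0.56 in the DEX group (SD, n = 5 each; two-sided exact permutation test, p = 0.921). It ran from 2.76 on DEX 3 to 4.17 on DEX 5, so both ends of the range were DEX arrays. miR-145-5p minus miR-145-3p was 6.35 ± 0.46 and 6.18 ± 0.16 (SD, n = 5 each; exact permutation test, p = 0.452), from 5.73 on Control 5 to 6.87 on Control 4, so here both ends were Control arrays. The DEX values of this difference include slide 3, where miR-145-3p was below the probe-free spots, and without slide 3 the change between groups was -0.24 (exact permutation test, p = 0.464). miR-143-3p minus miR-145-5p, which sets the bright arms of the 2 hairpins against each other, was 0.67 ± 0.11 and 0.76 ± 0.15 (SD, n = 5 each; exact permutation test, p = 0.357). After Benjamini-Hochberg adjustment over the 3 differences the p-values were 0.921, 0.679 and 0.679. The change of the first difference between groups, 0.02, turned negative without Control 4 (-0.07), without DEX 1 (-0.09) or without DEX 5 (-0.11), and was 0.24 without DEX 3. The change of the second difference, -0.17, became 0.38 within slide 2, and that of the third, 0.09, became -0.08.

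**Figure D3:**
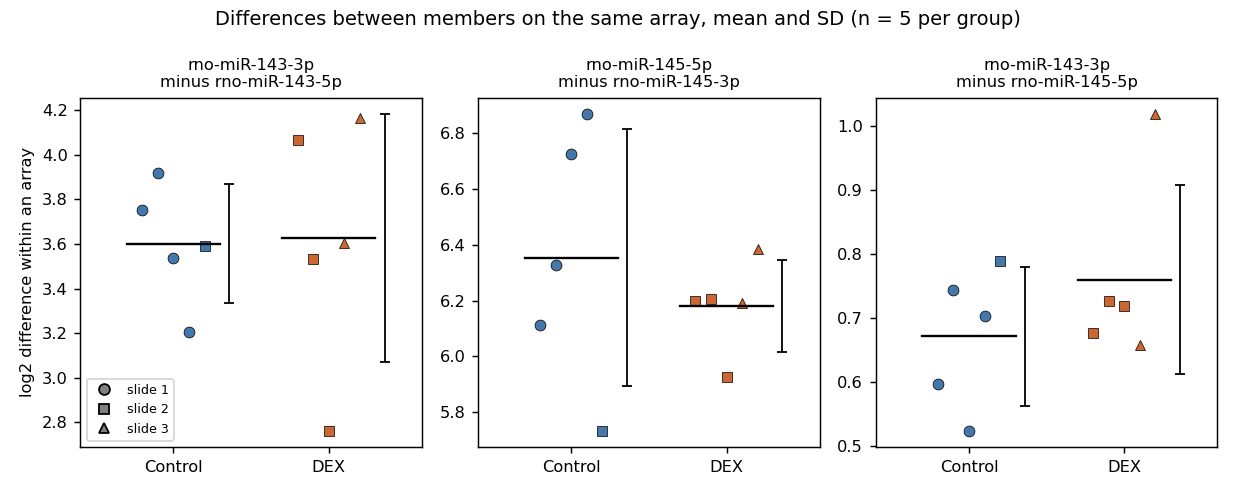
Log2 difference between 2 members on the same array, in the Control and DEX groups; points are arrays with their slide as the symbol, lines are means and bars are SD. The 2 groups overlap in each panel, and the difference between miR-143-3p and miR-145-5p, the bright arms of the hairpins, spans the narrowest range, from 0.52 to 1.02.

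The bright arms of the 2 hairpins went up and down together over the arrays. The correlation of log2 signal over 10 arrays between miR-143-3p and miR-145-5p was r = 0.87 (rho = 0.88, and r = 0.96 without the 2 arrays farthest from the median of miR-143-3p). Since a scaling factor is shared by all miRNAs of an array, this is a description and in part a measure of that factor: on the scaling over the miRNAs detected on all arrays r was 0.61 and rho 0.58. Without the 2 arrays farthest from the median of miR-143-3p on that scaling, r was 0.88. miR-145-3p went with miR-143-3p (r = 0.72, rho = 0.59) and with miR-145-5p (r = 0.80, rho = 0.75), and on the other scaling r was 0.62 and 0.70. After removal of group means its r with miR-143-3p was 0.70, only in place 157 among the 404 other miRNAs detected on all arrays (median 0.58). Its r with miR-145-5p was then 0.80, in place 57 for that arm (median 0.47).

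miR-143-5p showed no such course with its partner arm. Its correlation with miR-143-3p was r = -0.09 (rho = -0.08, and r = -0.37 without the 2 farthest arrays), and r = -0.07 on the other scaling. With miR-145-5p it was -0.19 and with miR-145-3p 0.28, and on the other scaling -0.01 and 0.23. Its within-group SD of 0.31 on the log2 scale was above that of 151 of the 168 miRNAs in the brightest part of those tested. The same rank was 119 of 168 for miR-143-3p and 65 of 168 for miR-145-5p in that part, and 159 of 167 in the middle part for miR-145-3p. Spread between replicates depended on signal, with a median SD of 0.22 in the brightest and 0.29 in the middle part.

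**Figure D4:**
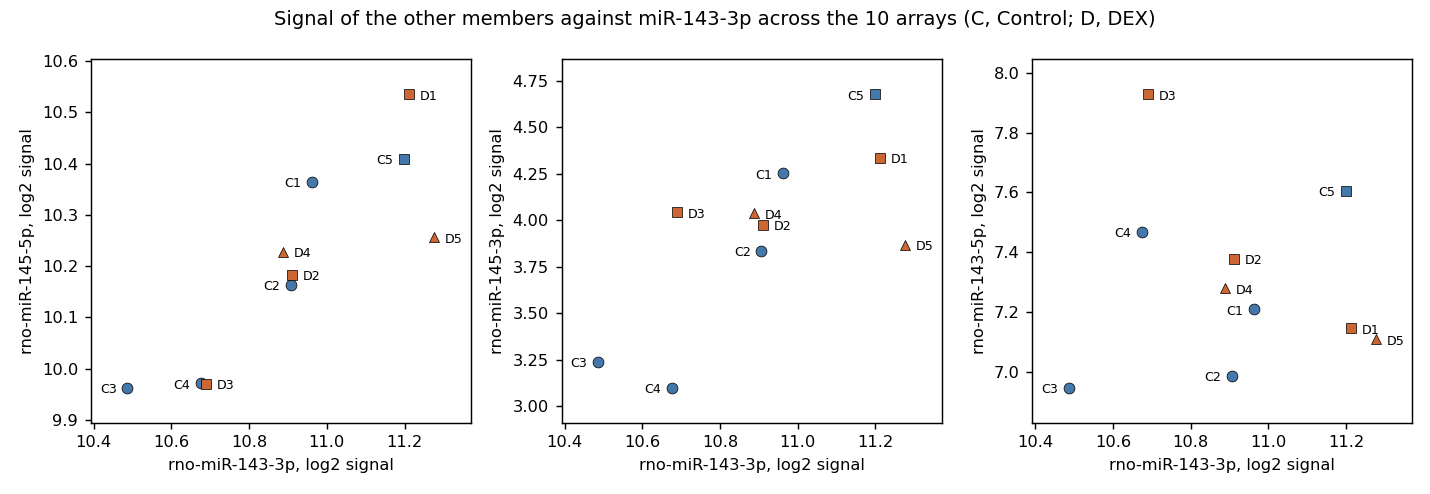
Log2 normalized signal of miR-145-5p, miR-145-3p and miR-143-5p against that of miR-143-3p on the 10 arrays; symbols give the slide and labels the array. miR-145-5p and miR-145-3p rise with miR-143-3p (r = 0.87 and 0.72), while miR-143-5p shows no such course (r = -0.09) and is highest on DEX 3. These correlations are in part a measure of the scaling factor shared by all miRNAs of an array.

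The miRNAs whose pattern was most like each member were taken by the correlation of log2 signal over 10 arrays with group means removed, among the other 404 miRNAs detected on all arrays. For miR-143-3p they were rno-miR-23b-3p (r = 0.99), rno-miR-301a-3p (0.98) and rno-miR-322-5p (0.98), against a median of 0.58 over all candidates, and miR-145-5p came in place 81. For miR-145-5p they were rno-miR-331-3p (0.93), rno-miR-126a-3p (0.93), which is the miRNA of the endothelium, and rno-miR-10a-5p (0.93), with miR-143-3p in place 23. For miR-145-3p they were rno-miR-540-5p (0.89), rno-miR-375-5p (0.87) and rno-miR-1306-3p (0.86). Without the 2 arrays farthest from its median these fell to 0.63, 0.78 and 0.62, and rho with group means kept was 0.67, 0.70 and 0.53. For miR-143-5p they were rno-miR-328b-3p (0.90), rno-miR-6332 (0.88) and rno-miR-874-5p (0.86), with a median of -0.09 over all candidates and its partner arm in place 237. Without the 2 arrays farthest from the median of miR-143-5p these were 0.83, 0.65 and 0.85. No other member was among the 3 miRNAs most like any member. On the other scaling rno-miR-23b-3p (0.97) and rno-miR-301a-3p (0.94) stayed first for miR-143-3p, and rno-miR-6332 (0.93) and rno-miR-328b-3p (0.93) stayed among the first 3 for miR-143-5p. Without the 2 farthest arrays rno-miR-6332 was at 0.74 there and rno-miR-328b-3p at 0.84. For miR-145-3p only rno-miR-540-5p (0.84) stayed among the first 3, and for miR-145-5p all 3 names changed.

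Other miRNAs that are known to act on the smooth muscle phenotype were compared as a list of 13, all of them tested. It held miR-1-3p, miR-133a-3p, miR-10a-5p, miR-24-3p, miR-26a-5p, miR-31a-5p, miR-146a-5p, miR-195-5p, miR-204-5p, miR-490-3p, miR-21-5p, miR-221-3p and miR-222-3p. None passed the adjusted threshold in limma and none had an unadjusted p under 0.05. The median log2 difference was 0.16, with 13 of 13 above 0, beside a median of 0.044 and a share above 0 of 59.2% over all tested miRNAs. Of the 13, miR-31a-5p was detected on only 7 of 10 arrays, and its log2 difference of 0.02 includes values set to the floor. The count above 0 was again 13 with scaling over the miRNAs detected on all arrays (list median 0.18, beside 0.065 over all tested miRNAs). It was 10 with quantile normalization, 8 with scaling to the 75th percentile, 4 on slide 2 alone and 2 without scaling. The sign thus depended on the setting. The list median was 0.09 with quantile normalization, 0.05 at the 75th percentile and -0.05 without scaling. Beside these, the median over all tested miRNAs was 0.006, -0.06 and -0.16. On slide 2 alone the list median was -0.21, below the -0.19 of all tested miRNAs. miR-21-5p, which promotes growth and survival of smooth muscle cells, stood at the upper end with 792 ± 181 in the Control group and 1035 ± 312 in the DEX group (SD, n = 5 each; log2 difference 0.37, limma adjusted p = 0.905). miR-221-3p, which favours the proliferating over the contractile state, had 109.9 ± 19.7 and 127.5 ± 14.0 (log2 difference 0.22, limma adjusted p = 0.905). miR-490-3p had the smallest difference, at 0.01. The list shares miR-1-3p and miR-133a-3p with heart muscle, and miR-21-5p is also made by fibroblasts.

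Markers of the other cell types of the ventricle were read beside the cluster, and 0 of them passed the adjusted threshold. The 2 arms of miR-126a, which mark endothelium, had log2 differences of 0.13 (miR-126a-3p) and 0.01 (miR-126a-5p). The 4 heart muscle miRNAs (miR-1-3p, miR-133a-3p, miR-208a-3p and miR-499-5p) had a median of 0.14, and the 3 fibroblast miRNAs (miR-199a-3p, miR-199a-5p and miR-214-3p) a median of 0.17. Among the fibroblast miRNAs miR-214-3p was lower in DEX, at -0.07, while both arms of miR-199a stood at 0.17. The median over the 4 members of the cluster was 0.14. The 4 leukocyte miRNAs (miR-223-3p, miR-142-3p, miR-142-5p and miR-150-5p) had a median of 0.25. On slide 2 alone the medians were -0.22 for the cluster, -0.08 for endothelium, -0.23 for heart muscle, -0.10 for fibroblasts and 0.12 for leukocytes. With quantile normalization the medians were 0.04 for the cluster, -0.03 for endothelium, 0.01 for heart muscle (2 of 4 above 0), 0.10 for fibroblasts and 0.18 for leukocytes. Among the 3 red cell miRNAs, miR-144-3p stood at -0.75 (limma unadjusted p = 0.0575, adjusted p = 0.905), miR-451-5p at -0.59 (unadjusted p = 0.0970, adjusted p = 0.905) and miR-486 at 0.02. The median of the red cell list was -0.59, on slide 2 alone -0.20 and with quantile normalization -0.68. Every one of these markers was detected on all 10 arrays. The summed signal of the cluster ran from 2566 to 3932 on the Control arrays and from 2914 to 4018 on the DEX arrays. That of the endothelial list ran from 4360.3 to 5783 and from 4369.6 to 6739, that of the fibroblast list from 498 to 878 and from 602 to 886, and that of the heart muscle list from 18827 to 27616 and from 19082 to 28148. For the red cell list the sums ran from 564 to 1028 and from 349 to 1004, and for the leukocyte list from 690 to 889 (Control) and from 804 to 1073 (DEX). The part of blood or of any cell type in the members' values was not tested.

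Set against the mean log2 signal of the heart muscle list on the same array, miR-143-3p stood at -0.19 ± 0.13 in the Control group and -0.16 ± 0.10 in the DEX group (SD, n = 5 each), and miR-145-5p at -0.86 ± 0.13 and -0.92 ± 0.15. Against the endothelial list miR-143-3p stood at 0.29 ± 0.14 and 0.37 ± 0.08, and miR-145-5p at -0.38 ± 0.11 and -0.39 ± 0.14. The ranges of the 2 groups overlapped for each of these values, and the zero point of such a difference has no meaning, since it depends on the probes. The place of a member in the order of signal within its array, which no scaling factor can move, overlapped between the 2 groups for every member. miR-143-3p was in place 24 to 28 on both the Control arrays and the DEX arrays, and miR-145-5p in place 34 to 37 on the Control and 34 to 39 on the DEX arrays. miR-143-5p ran from 87 to 105 on the Control arrays and from 76 (DEX 3) to 114 (DEX 5) on the DEX arrays. miR-145-3p ran from 263 to 394 and from 277 to 343.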

How the data were processed

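Cy5-labelled total RNA from 10 left ventricles (5 Control, 5 DEX) was read on rat miRNA chips that carry 1 spot per miRNA. The labels name an RNeasy kit and the study's methods an miRNeasy kit for extraction. Per the file headers, the deposited scanner files hold spot intensity at 635 nm on a linear scale, merged from 3 gains, with no background removed. The authors' series value table holds a normalized score per miRNA and array, whose medians lay between 15 and 18. Set against the scanner values, the score was the intensity minus the blank mean (trimmed by 5% at each end), scaled so that the median of the 405 miRNAs detected on all arrays was 25, and rounded: 99.8% of 5038 values came within 0.51. It was neither log-transformed nor centred by miRNA. Detection followed the blank mean plus 2 SD, which differed from the table in 2 of 7610 calls. For the scanner's extraction software the version was not given in the sources used here. The table had 0 unused columns.

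Here the blank mean was subtracted, each array was scaled to a median of 25 over its own detected miRNAs, the array's lowest detected value (3.64 to 5.09) was given to miRNAs not detected on it, and log2 was taken. A miRNA was tested if 5 or more arrays detected it (503 miRNAs), with limma 3.58.1 in R 4.3.3 (two-sided, Benjamini-Hochberg, threshold 0.05), after a test on simulated data. For single values, exact permutation tests (two-sided, SciPy 1.17.1) were used. Where slide alone left 1 Control array against 3, the smallest exact p was 0.25. The named miRNAs were the 4 members, the 3 most correlated with each, and all miRNAs of the lists, any of which may be named. Alternatives covered background correction, scaling, the value table, filter, floor, detection limit, model, slide, replicate block, the methods' t-test and leaving out each array. Members, lists and tests were chosen with earlier results of these data known. The deposited local background intensity, which rose with the spot signal (correlation 0.953 to 0.984 by array), entered an alternative only. Promoter sequences were not used. Plots used matplotlib 3.10.9 (Python 3.11.15).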

Additional observations from a re-analysis of the deposited data

Results flagged for a closer look

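In the DEX group the difference between miR-143-3p and miR-145-5p on DEX 5 stood apart from the other 4 arrays (1.02 against 0.66 to 0.73 on the log2 scale). The distance to its neighbour made up 0.812 of the whole DEX range, above the critical value of 0.71. It was the only such value among 14 groups of 5 arrays examined, where chance gives about 0.7.

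Probe-free spots, used in none of the comparisons above, stood 37.7 above blank on DEX 4 and 28.8 on DEX 5, against 6.62 to 10.2 on the Control arrays. Both arrays are those of slide 3. On them miR-143-3p and miR-145-5p were 4056 and 2569 above blank on DEX 4 and 4277 and 2109 on DEX 5, while miR-145-3p was 35.2 and 25.2 above blank, below the probe-free spots. Without slide 3 its log2 difference was 0.30, and its part in the result was not tested.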

How the results depend on the processing

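No member had an adjusted p under 0.05 under any of the 32 alternatives of the fit, and the count over all tested miRNAs was 0 in each (smallest adjusted p 0.0608 to 0.992), while the count of tested miRNAs at an unadjusted p under 0.05, 15 in the fit as reported, ranged from 7 to 42. The sign of the members' differences was not stable. The median over all miRNAs was -0.19 on slide 2 alone and with slide as a fixed term. There the members' log2 differences, in the order miR-143-3p, miR-143-5p, miR-145-5p and miR-145-3p, were -0.26, -0.12, -0.18 and -0.56. Without scaling they were -0.057 and -0.081 for both arms of miR-143 and -0.15 for miR-145-5p, where the median over all miRNAs was -0.16. With normexp on the local background, miR-143-3p was -0.18, miR-145-5p -0.066 and miR-145-3p -0.024. On DEX 3 that background was 13.4% of the miR-145-5p spot, against 27.1% to 95.3% on the other arrays. miR-145-5p was also below 0 with no background correction (-0.033), with scaling to the 75th percentile (-0.048, where the median over all miRNAs was -0.064) and with quantile normalization (-0.037). With slide as a fixed term and scaling over the miRNAs detected on all arrays, a setting added after seeing the data, miR-143-3p was -0.075 and miR-145-3p -0.37, while miR-143-5p was 0.065 and miR-145-5p 0.0080, so that 2 of 4 were below 0. Another added setting, slide 1 Control arrays against slide 2 DEX arrays, gave 0.18, 0.33, 0.11 and 0.51.

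Leaving out 1 array at a time gave 0.059 to 0.24 for miR-143-3p, -0.016 to 0.21 for miR-143-5p, -0.015 to 0.13 for miR-145-5p and 0.052 to 0.45 for miR-145-3p. For the change of the within-array differences it gave -0.11 to 0.24 (miR-143-3p minus miR-143-5p), -0.33 to -0.043 (miR-145-5p minus miR-145-3p) and 0.024 to 0.12 (miR-143-3p minus miR-145-5p). Other reversals of these were -0.21 with normexp, -0.00079 with quantile normalization (added), -0.14 on slide 2 alone and -0.15 without slide 3 for the first, 0.38 on slide 2 alone for the second, and -0.12 with normexp and -0.083 on slide 2 alone for the third. The cause of these reversals was not tested, and no p of a within-array difference was below 0.143.

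Replicate numbers did not pair the arrays: the correlation of same-numbered arrays was -0.081 to 0.11. With the replicate block the members' differences were 0.15, 0.12, 0.06 and 0.23. They equal those without it by design, since each number holds 1 Control and 1 DEX array. Their SE in limma were 0.096, 0.22, 0.10 and 0.25 in place of 0.17, 0.19, 0.15 and 0.27. The block gave 0 calls and 35 miRNAs at an unadjusted p under 0.05 in place of 15. The number of arrays limits all values, and signal over background limits miR-145-3p.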

Other observations

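rno-miR-3584-3p, which shares a run of 10 bases with miR-143-5p, was on the array and detected on all 10 arrays. Its log2 signal had a correlation of -0.08 with that of miR-143-5p over 10 arrays with group means removed.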
